A study of Rattus norvegicus with 6 samples.

Results

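Guanylyl cyclases, natriuretic peptides and their receptors were examined in the aorta of spontaneously hypertensive rats (SHR), a rat strain bred for hypertension. The set holds 10 genes: the soluble cyclase subunits Gucy1a1, Gucy1a2, Gucy1b1 and Gucy1b2, the receptors Npr1, Npr2 and Npr3, and the peptide genes Nppa, Nppb and Nppc. They were taken as every probe set whose single symbol in the platform annotation was one of these genes, which gave 16 of the 8799 probe sets on the chip and 9 of its 4737 named genes. Gucy1a2 had no such probe set and has no value here. Runners were SHR with a wheel in the cage for 5 weeks of voluntary exercise, and non-runners were SHR that did not run. Each group had 3 arrays (chips A, B and C), and each array carried RNA from a pool of 3 aortae. The titles of runner chips A, B and C also give the letters D, E and F in brackets. The labels give neither sex nor age, and they do not say which animals went into which pool, so the spread behind each p-value is that between pools and may be partly technical.

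Cyclic GMP relaxes vascular smooth muscle, largely through protein kinase G, and guanylyl cyclases make it from GTP. The soluble cyclase is a heterodimer of an alpha and a beta subunit whose haem group binds nitric oxide from the endothelium. Npr1 and Npr2 are receptors in the cell membrane with a cyclase domain inside the cell: Npr1 binds the atrial and B-type peptides (products of Nppa and Nppb), and Npr2 binds the C-type peptide (product of Nppc). Npr3, the clearance receptor, binds all of these peptides, lacks the cyclase domain and removes them from the circulation. Heart muscle is the main source of the atrial and B-type peptides, and endothelial cells are a source of the C-type peptide.

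The promoters of the 3 peptide genes and of the 2 soluble cyclase subunits measured above the control level are shown because the peptide genes were dim on every array, and because the subunits form 1 heterodimer and were both highest on the same array. The RefSeq promoter table (assembly GRCr8) matched 9 of the 10 members, all but Npr2, and each sequence is the 250 bases before the gene's start in that table, 5′ to 3′ on the gene's strand. Capitals mark the motifs searched for. One was TATAAA, the usual form of the box that positions the start of transcription. Another was CCAAT, which the factor NF-Y binds in many promoters. The third was GGGCGG, the core of the site bound by Sp1 and related factors. The last was the motif of GATA factors, which was searched for as TGATAA. Its other common spelling begins with a different base, and it was searched for as AGATAA. Both strands were searched, so that a match on the other strand reads as the reverse complement.
Nppa (chr5:163711934-163712183, plus strand): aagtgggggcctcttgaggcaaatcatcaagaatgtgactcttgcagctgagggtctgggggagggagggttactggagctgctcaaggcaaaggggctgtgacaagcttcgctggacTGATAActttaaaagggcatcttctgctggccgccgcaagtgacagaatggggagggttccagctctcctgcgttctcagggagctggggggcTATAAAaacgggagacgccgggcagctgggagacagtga
Nppb (chr5:163699758-163700007, plus strand): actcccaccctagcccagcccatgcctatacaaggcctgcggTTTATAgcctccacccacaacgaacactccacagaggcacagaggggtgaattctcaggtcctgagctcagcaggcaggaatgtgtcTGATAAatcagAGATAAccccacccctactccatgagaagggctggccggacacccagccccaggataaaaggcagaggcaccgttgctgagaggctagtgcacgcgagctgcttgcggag
Nppc (chr9:94772187-94772436, minus strand): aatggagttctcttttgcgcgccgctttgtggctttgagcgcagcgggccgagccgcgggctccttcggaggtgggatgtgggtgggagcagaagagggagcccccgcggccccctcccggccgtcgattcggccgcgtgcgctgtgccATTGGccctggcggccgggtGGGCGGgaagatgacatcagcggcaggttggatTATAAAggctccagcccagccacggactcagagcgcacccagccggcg
Gucy1a1 (chr2:169779624-169779873, minus strand): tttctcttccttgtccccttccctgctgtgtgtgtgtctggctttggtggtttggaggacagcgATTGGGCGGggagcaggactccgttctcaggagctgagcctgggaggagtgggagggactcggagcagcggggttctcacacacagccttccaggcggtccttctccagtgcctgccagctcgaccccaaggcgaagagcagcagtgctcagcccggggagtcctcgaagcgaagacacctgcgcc
Gucy1b1 (chr2:169696988-169697237, minus strand): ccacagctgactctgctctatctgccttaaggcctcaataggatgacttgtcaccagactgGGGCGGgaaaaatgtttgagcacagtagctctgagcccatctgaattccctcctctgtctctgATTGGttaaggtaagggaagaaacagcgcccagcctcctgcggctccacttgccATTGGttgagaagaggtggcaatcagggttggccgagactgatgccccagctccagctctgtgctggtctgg

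TGATAA was found before Nppa and Nppb and before 0 of the other 7 members, against 7.97% of all 33469 promoters of this length. It began 132 bases before the start of Nppa and 121 bases before that of Nppb, where AGATAA followed at 110 bases. AGATAA was found before 1 of the 9 members, near its share of 10.3% of all promoters. TATAAA began 39 bases before Nppa and 48 bases before Nppc, on the other strand 208 bases before Nppb, and also before Gucy1a2, which is not shown, and 12.9% of all promoters hold it. CCAAT and GGGCGG were both present before Gucy1a1 and Gucy1b1, and also before Gucy1a2, Npr1 and Nppc, against 10.1% of all promoters. In Gucy1a1 these last motifs overlap, so the matches there are not separate stretches. In the gene table of the same assembly Gucy1a1 and Gucy1b1 lie near each other on chromosome 2 with 1 gene, not protein-coding, between them, and Nppa and Nppb are neighbours on chromosome 5 with 0 genes between them. These matches describe the letters in the window and show no binding.

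The deposited values are intensities, 1 per probe set and array, with no detection calls. A control level of 40.8 was taken from 19 control probe sets (yeast genes or the sense strand), as their 95th percentile. Of the 16 probe sets, 6 lay above it on all 6 arrays and 10 lay below it on all 6. The 6 were those of Gucy1a1, Gucy1b1, Npr1 (3 probe sets) and Npr2, so 4 of the 9 genes were measured above the control level. Gucy1b2, Npr3, Nppa, Nppb and Nppc were not. Array medians, 28.5 to 32.2, were themselves below that level, so a low value does not show that a transcript is absent.

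**Figure D1:**
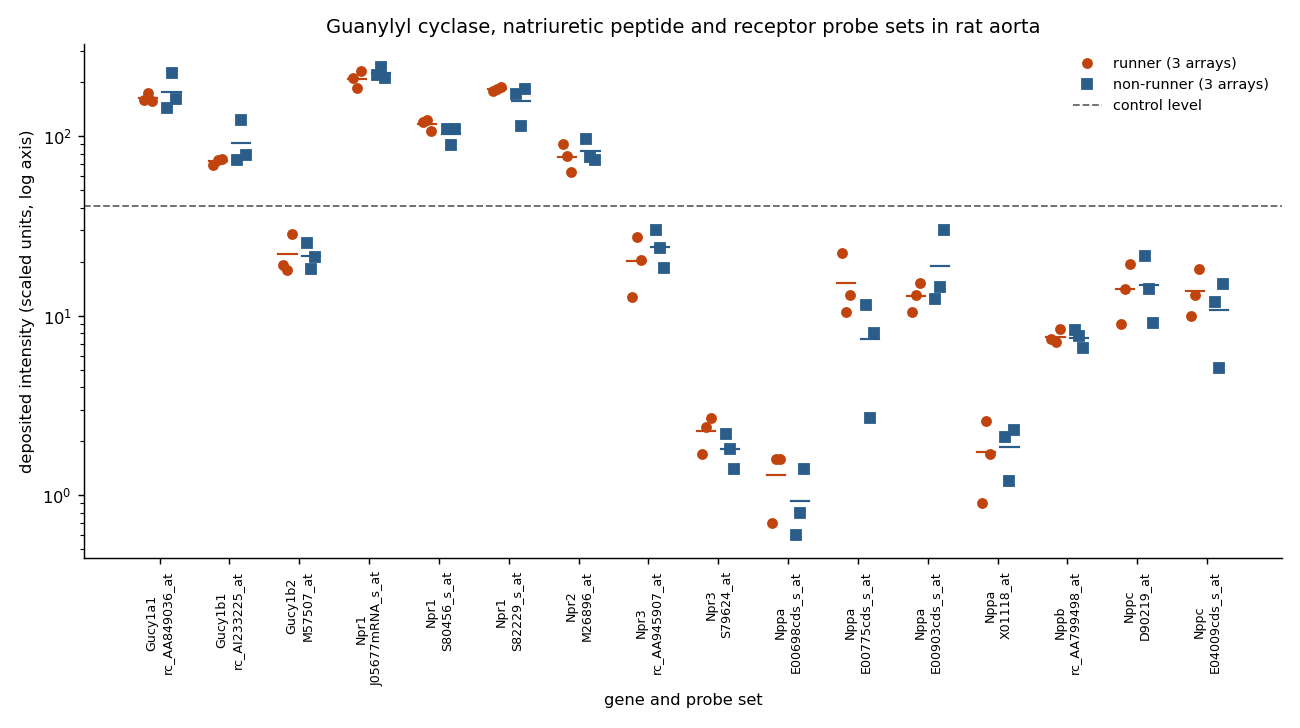
Deposited intensity (log axis) of the 16 probe sets, with runner arrays as circles and non-runner arrays as squares, chips A, B and C from left to right within a group, short lines at group means and a dashed line at the control level of 40.8. The probe sets of Gucy1a1, Gucy1b1, Npr1 and Npr2 lie above the line on every array, and the other 10 lie below it on every array.

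No difference between runners and non-runners in these genes passed limma's test. Groups were compared on quantile-normalized log2(intensity + 2.4) with Benjamini-Hochberg adjustment over 5244 probe sets, after control probe sets and the dimmest 40% were left out. Of the 16 probe sets, 8 were tested (6 genes). At an adjusted p under 0.05, 0 of the 8 were called, where 0% of all tested probe sets were. At an unadjusted p under 0.05, 0 of the 8 passed, against 8.09% of all tested probe sets (3.87% higher and 4.21% lower in runners), and in 0 of the 8 did the deposited intensities of the groups separate fully, against 14.9%. The 8 probe sets left out by the filter were the 7 of the peptide genes and 1 of Npr3.

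Of the 6 probe sets above the control level, 4 had a negative log2 difference (runner minus non-runner) and 2 a positive one. Their median was -0.09, beside 0.00 over all tested probe sets (-0.0041 before rounding). Adjusted p from limma lay between 0.749 and 0.917. The 95% intervals, each for its own probe set and not adjusted for their number, ran from -0.77 to 0.72 at the extremes. On the scale of log2(intensity + 2.4), which understates the change of dim genes, the largest fold inside any of them was 1.7-fold lower or 1.65-fold higher in runners. A 2-fold change therefore lay outside each interval. Residual SDs of the 6 were 0.13 to 0.28 on the log2 scale, around the median of 0.23 over all tested probe sets. The tissue was measured in bulk, so fewer cells of a type and less RNA per cell could not be told apart in any of these values.

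**Figure D2:**
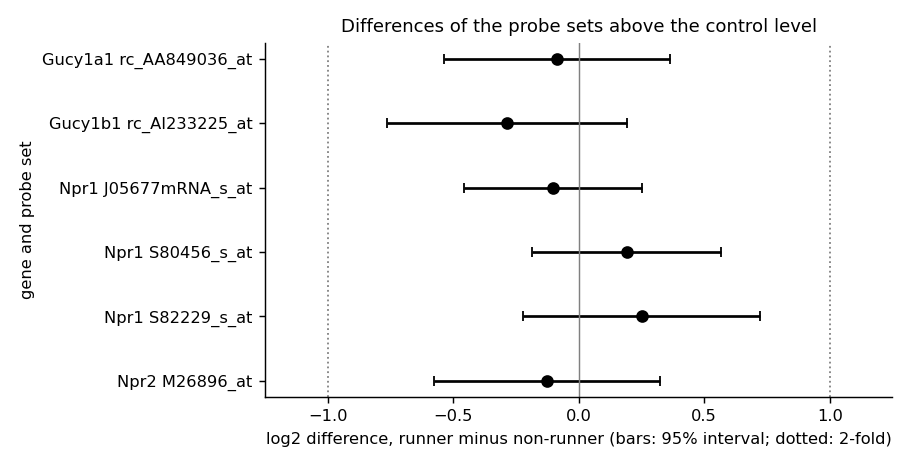
Log2 difference, runner minus non-runner, of the 6 probe sets above the control level (points), with 95% intervals from limma (bars) and dotted lines at a 2-fold change. All 6 intervals include 0, and all lie between -0.77 and 0.72.

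Soluble guanylyl cyclase was represented by both subunits of its common heterodimer. Gucy1a1, the alpha-1 subunit, measured 159.6, 174.0 and 156.5 on runner arrays A, B and C, against 143.0, 225.6 and 161.2 on non-runner arrays A, B and C. The runner values lay close together inside the wider non-runner range, and the highest value was that of non-runner B. The group means were 163 ± 9.3 for runners and 177 ± 43.4 for non-runners (SD, n = 3 arrays each), with a log2 difference of -0.09 ± 0.19 (SE, limma adjusted p = 0.917).

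Gucy1b1, the beta-1 subunit that carries the haem, measured 69.0, 73.3 and 74.9 on runner arrays A, B and C, against 73.3, 122.3 and 78.1 on non-runner arrays A, B and C. Non-runner B was again the high array, and runner B and non-runner A had the same value. The group means were 72.4 ± 3.1 for runners and 91.2 ± 27.0 for non-runners (SD, n = 3 each), a log2 difference of -0.29 ± 0.21 (SE, limma adjusted p = 0.749). This was the difference furthest from 0 among the 6 probe sets above the control level, and its interval ran from -0.77 to 0.19.

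Relative to their means over the 6 arrays, both subunits were highest on non-runner B, Gucy1a1 by 0.42 and Gucy1b1 by 0.58 on the log2 scale. On the other 5 arrays Gucy1a1 lay between -0.23 and 0.05 and Gucy1b1 between -0.18 and 0.00. The centred value of Gucy1a1 minus that of Gucy1b1 was 0.10, 0.17 and 0.03 on runner arrays A, B and C, against -0.07, -0.16 and -0.06 on non-runner arrays A, B and C. This gap separated the groups fully, with or without non-runner B, but it was looked at after the values were seen and was not tested. How often the gap between any other probe sets separates the groups was not counted. Taken each by itself, the group differences of Gucy1a1 and of Gucy1b1 rested largely on 1 array, non-runner B. Without non-runner B the log2 difference of Gucy1a1 turned to 0.10 (limma adjusted p = 0.881) and that of Gucy1b1 was -0.06 (limma adjusted p = 0.915).

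Non-runner B also stood apart over the whole chip. Its ratio of 3' to 5' signal was 2.14 for beta-actin and 1.95 for GAPDH, against 1.22 to 1.67 and 1.11 to 1.39 on the other arrays. This ratio is higher where the 5' part of the transcript gives less signal. Non-runner C came next, with 1.67 and 1.39. The GAPDH ratio did not overlap between the groups, with 1.1135 to 1.2223 in runners and 1.2233 on non-runner A. For beta-actin the groups overlapped, with 1.22 to 1.43 in runners and 1.28 on non-runner A. The SD of log2 differences over tested probe sets was 0.56 to 0.61 in pairs with that array and 0.36 to 0.41 in the other pairs. The summed level of 4 brown fat markers, among them Ucp1, Cidea and Cox8b, was 2056, 2494 and 1427 on runner arrays A, B and C, against 2388, 1360 and 2545 on non-runner arrays A, B and C, so it was low on runner C as well. The part of signal loss or of tissue composition in the cyclase values was not tested.

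**Figure D3:**
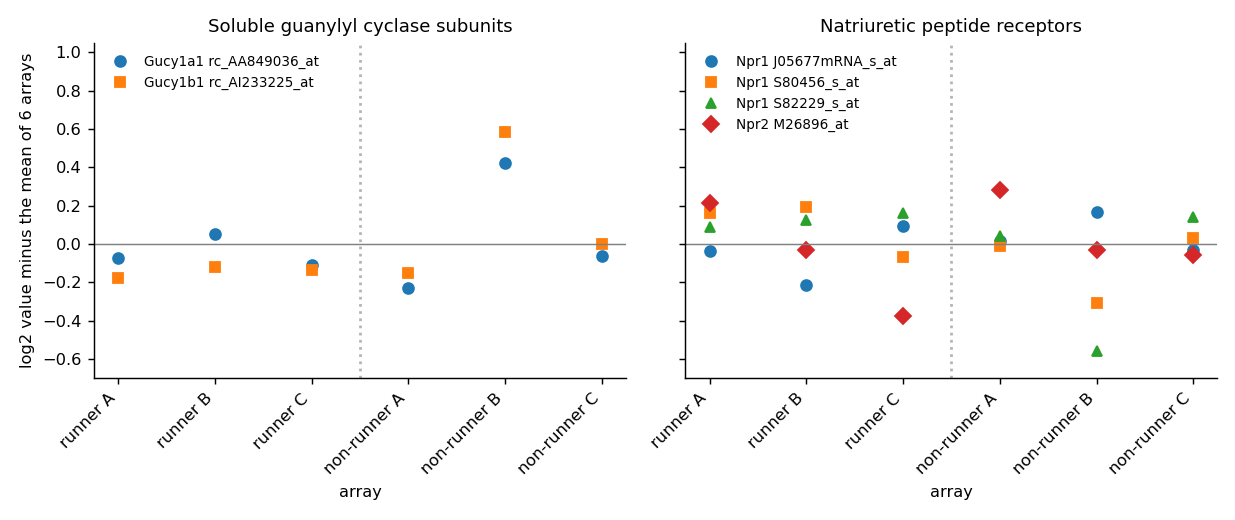
Log2 value of each probe set minus its mean over 6 arrays, for the soluble cyclase subunits (left panel) and Npr1 and Npr2 (right panel), with runner arrays left of the dotted line and non-runner arrays right of it. On non-runner B both subunits lie high, at 0.42 and 0.58, while the Npr1 probe sets spread from -0.56 to 0.17.

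Gucy1b1 had the largest SD over the 6 arrays among the 6 probe sets above the control level. The named probe sets closest to its pattern, by root mean square difference of centred log2 values over 6 arrays among 4321 searched, were those of Ssbp2 (0.044), Bnip3l (0.0536) and Eif4h (0.0542). Bnip3l, a mitophagy receptor, and Eif4h, a translation initiation factor, were above the control level on all arrays and Ssbp2 on 1. Bnip3l measured 322.0, 353.1 and 329.1 on runner arrays, against 317.3, 503.6 and 341.9 on non-runner arrays, so it too was highest on non-runner B.

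Gucy1b2, the beta-2 subunit, measured 18.0 to 28.6 and lay below the control level on every array. Its group means were 21.9 ± 5.8 for runners and 21.6 ± 3.7 for non-runners (SD, n = 3 each, limma adjusted p = 0.964), and no fold is given.

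Npr1, the receptor of the atrial and B-type peptides, was measured by 3 probe sets that did not move together. The probe set J05677mRNA_s_at gave 211.3, 186.1 and 231.2 on runner arrays A, B and C, against 218.4, 241.7 and 211.4 on non-runner arrays A, B and C. These values overlapped, with the highest on non-runner B and the lowest on runner B. The group means were 210 ± 22.6 for runners and 224 ± 15.9 for non-runners (SD, n = 3 each, log2 difference -0.10 ± 0.15 SE, limma adjusted p = 0.871).

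The probe set S82229_s_at gave 178.2, 182.0 and 187.8 on runner arrays A, B and C, against 171.7, 113.9 and 183.7 on non-runner arrays A, B and C. Here non-runner B was the low array, and the other 5 lay between 171.7 and 187.8. The log2 difference was 0.25 ± 0.20 (SE, limma adjusted p = 0.764), and 0.03 without non-runner B. The probe set S80456_s_at gave 120.6, 123.5 and 106.4 on runner arrays, against 109.1, 89.4 and 109.9 on non-runner arrays. Non-runner B was again the low array, and the log2 difference was 0.19 ± 0.16 (SE, limma adjusted p = 0.774), and 0.08 without that array.

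So 1 probe set of Npr1 was 0.17 above its own mean on non-runner B and the other 2 were 0.31 and 0.56 below theirs (centred log2 values -0.31 and -0.56). The files give no position of the probe sets along the transcript. The mean over the 3 centred probe sets was 0.04 to 0.07 on the 3 runner arrays. On the non-runner arrays A and C it was 0.02 and 0.05, and on B it was -0.23. By group this gave 0.06 ± 0.02 for runners and -0.06 ± 0.15 for non-runners (SD, n = 3 each).

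Npr2, the receptor of the C-type peptide, measured 90, 77.2 and 63.2 on runner arrays A, B and C, against 97.0, 76.8 and 73.9 on non-runner arrays A, B and C. The groups overlapped, and here non-runner B lay in the middle of its group. The group means were 76.8 ± 13.4 for runners and 82.6 ± 12.6 for non-runners (SD, n = 3 each), with a log2 difference of -0.13 ± 0.20 (SE, limma adjusted p = 0.873). It turned to 0.03 without runner C, the lowest array.

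Npr3, the clearance receptor, lay below the control level in both of its probe sets. The probe set rc_AA945907_at gave 12.7, 27.5 and 20.4 on runner arrays, against 30.1, 23.9 and 18.5 on non-runner arrays (limma adjusted p = 0.764). The other, S79624_at, gave 1.4 to 2.7 over all arrays and was not tested. The groups overlapped in both, and no fold is given.

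The natriuretic peptide genes were dim on every array. Their 7 probe sets ranged from 0.6 to 29.9, all below the control level of 40.8, and 0 of the 7 passed the filter on dim probe sets, so none was tested. Nppb, the B-type peptide gene, gave 7.4, 7.1 and 8.4 on runner arrays, against 8.3, 7.7 and 6.6 on non-runner arrays, and the groups overlapped.

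Nppa, the atrial peptide gene, had 4 probe sets. Over all arrays E00698cds_s_at and X01118_at gave 0.6 to 2.6, and E00775cds_s_at and E00903cds_s_at gave 2.7 to 29.9. E00775cds_s_at had means of 15.3 ± 6.3 (runners) and 7.4 ± 4.4 (non-runners), and E00903cds_s_at of 12.9 ± 2.4 (runners) and 18.9 ± 9.6 (non-runners, SD, n = 3 each). The means of these 2 lay in opposite orders, and the groups overlapped in all 4.

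Nppc, the C-type peptide gene, gave 9.0, 14.0 and 19.3 on runner arrays, against 21.6, 14.0 and 9.1 on non-runner arrays, in the probe set D90219_at. The other, E04009cds_s_at, gave 10, 13.0 and 18.2 on runner arrays, against 12.0, 5.1 and 15.1 on non-runner arrays. The groups overlapped in both.

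Markers of the tissues that make or read these peptides were set beside them. Smooth muscle markers fitted the labelled tissue, with 5 of 5 measured genes above the control level on all arrays, among them Acta2 at 3896 to 4412 in runners and 2913 to 4648 in non-runners. Of 11 cardiac muscle markers, 8 lay below the control level on every array, among them the cardiac myosin heavy chain Myh6 (3.8 to 12.5 in runners and 3.7 to 11.9 in non-runners) and the atrial myosin light chain Myl4 (2.8 to 3.0 in runners and 2.8 to 6.1 in non-runners). Casq2, calsequestrin of heart and other muscle, was above it on all arrays. The atrial light chain Myl7 measured 42.6 to 45.6 in runners and 36.2 to 44.2 in non-runners, and it and the ventricular light chain Myl2 were above that level on 4 of 6 arrays. Of 8 endothelial markers 3 were above it on all arrays and 4 below it on all, with summed levels of 492 to 508 in runners and 507 to 609 in non-runners. Among adipocyte markers, from a tissue that also carries Npr1 and Npr3, 6 of 7 were above it on all arrays, with summed levels of 3027 to 3138 in runners and 2682 to 3466 in non-runners.

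The summed levels of 2 other marker lists did not overlap between the groups, and those of all remaining lists overlapped. Of all tested probe sets, 14.9% did not overlap. Nerve and Schwann cell markers summed to 1084, 1197 and 1135 on runner arrays A, B and C, against 1359, 1630 and 1465 on non-runner arrays A, B and C. This sum was highest on non-runner B. Pmp22, its brightest gene, measured 770.8 to 814.2 in runners and 897.2 to 1170 in non-runners, while the groups overlapped in S100b and Syn1. Blood markers summed to 1762, 1763 and 3305 on runner arrays, against 1152, 1580 and 1205 on non-runner arrays. Hbb, the brightest of them, measured 1446 to 2911 in runners and 889 to 1311 in non-runners. The groups did not overlap in Pf4 and overlapped in Alas2. The part of these tissues in the values of the cyclic GMP genes was not tested.

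Other genes of cyclic GMP signalling did not pass the test either. The list held 60 genes, of which 43 had a probe set and 31 were tested in their brightest probe set. Of the 31, 15 were higher and 16 lower in runners, with a median log2 difference of -0.01, beside -0.02 over the 3173 named genes tested. At an adjusted p under 0.05, 0 of the 31 were called by limma, and their lowest adjusted p was 0.567. With p unadjusted, 5 lay under 0.05, or 16.1% of the 31, beside 7.37% of all named genes tested: Pde5a higher, and Nos3, Ece1, Hsp90ab1 and Dlg4 lower in runners. With single arrays left out this count was 2 to 4, and it was 2 without non-runner C or any of the runner arrays. The 6 genes Dpp4, Gch1, Pde3a, Nos1, Mme and Cnga1 lay below the control level on all arrays, and their directions are not established as signal.

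Upstream of the soluble cyclase, 5 of the 9 tested nitric oxide synthases, cofactor enzymes and regulators were higher and 4 lower. Gch1, higher, and Nos1, lower, lay below the control level on all arrays. Nos3, the endothelial nitric oxide synthase, measured 66.8, 69.6 and 50 on runner arrays, against 103.1, 69.1 and 91.4 on non-runner arrays (log2 difference -0.51 ± 0.21 SE, limma adjusted p = 0.597). Non-runner B lay among the runner values, and 4 of its 5 tested probe sets had this sign. Endothelial markers did not share 1 direction: Egfl7 measured 37.2, 34.1 and 14.6 on runner arrays, against 86.7, 140.1 and 129.7 on non-runner arrays (limma adjusted p = 0.234). Its groups did not overlap, and every runner array lay below the control level. Pecam1 measured 184.4, 167.1 and 161.4 on runner arrays, against 195.1, 79.2 and 126.3 on non-runner arrays (log2 difference 0.45 ± 0.30 SE, limma adjusted p = 0.726). The part of endothelial content in the Nos3 values was not tested. Ddah1, which breaks down an inhibitor of these synthases, measured 330 ± 19.3 for runners and 254 ± 49.3 for non-runners (SD, n = 3 each, limma adjusted p = 0.622). Nos2, counted as lower, measured 96.8, 12.8 and 85.5 on runner arrays, against 84.6, 90.1 and 84.1 on non-runner arrays (limma adjusted p = 0.759). Only runner B was low, and the other tested probe set of Nos2 had the opposite sign.

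Transcripts of proteins that bind or service the soluble cyclase had a negative difference in 3 of 3 tested genes, beside 1704 of all 3173 named genes (53.7%), and 0 of the 3 passed limma's test after adjustment. Hsp90ab1, a chaperone that takes part in the maturation of the beta-1 subunit, measured 1745, 1903 and 1994 on runner arrays, against 2133, 3039 and 2738 on non-runner arrays (log2 difference -0.46 ± 0.16 SE, limma adjusted p = 0.581). The groups did not overlap. Dlg4, a scaffold protein of synapses that binds the alpha-2 subunit, measured 111 ± 5.4 for runners and 149 ± 28.0 for non-runners (SD, n = 3 each, limma adjusted p = 0.598). Its groups did not overlap either. Cyb5r3, a reductase that acts on the haem of the cyclase, had means of 609 ± 121 (runners) and 897 ± 219 (non-runners) in its brightest probe set (limma adjusted p = 0.622), and 3 of its 5 tested probe sets were lower. Like Gucy1a1 and Gucy1b1, all 3 genes were highest on non-runner B, the array that stood apart over the whole chip. In Hsp90ab1 and Dlg4, but not in Cyb5r3, non-runners A and C also lay above every runner array. All 4 tested probe sets of Hsp90ab1 had a negative difference. The share of all probe sets that were highest on non-runner B was not counted.

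The phosphodiesterase list had 5 tested genes, with 5 higher and 0 lower in runners, beside 1469 higher among all 3173 named genes. After adjustment, 0 of the 5 passed limma's test. Only Pde1b lay above the control level on more than 1 array. Among the 5, Pde6d encodes a prenyl-binding subunit that does not itself split cyclic GMP, and Pde3a lay below the control level on all arrays. At such low levels the shared direction of the group is not established as signal. Pde5a, the target of sildenafil, measured 37.7, 39.4 and 59.0 on runner arrays, against 27.3, 25.2 and 33.2 on non-runner arrays (limma adjusted p = 0.567). The groups did not overlap, but only runner C lay above the control level, and no fold is given. Pde1b measured 48.0 ± 2.5 for runners and 39.0 ± 4.1 for non-runners (SD, n = 3 each, limma adjusted p = 0.679). Pde3b had means of 39.5 ± 3.3 (runners) and 31.9 ± 2.3 (non-runners), with 1 array above the control level. In Pde1b and Pde3b the groups did not overlap either, beside 14.9% of all tested probe sets.

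Of 6 tested genes for the processing and breakdown of the peptides, 2 were higher and 4 lower. Dpp4 and Mme, among the lower ones, lay below the control level on all arrays. Ece1, the endothelin-converting enzyme, measured 305.1, 325.2 and 308.3 on runner arrays, against 412.6, 383.4 and 387.5 on non-runner arrays (log2 difference -0.34 ± 0.14 SE, limma adjusted p = 0.583). The groups did not overlap, although its other tested probe set had the opposite sign. Pcsk6, a protease that activates corin, had means of 104 ± 5.6 (runners) and 120 ± 21.0 (non-runners), and Mme, neprilysin, which degrades the peptides, was below the control level at 18.9 ± 0.3 for runners and 22.1 ± 1.4 for non-runners (SD, n = 3 each). The groups overlapped in Pcsk6 and did not overlap in Mme.

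Cyclic GMP targets and effectors were higher in 3 and lower in 4 of 7 tested genes, with 0 at an unadjusted p under 0.05 by limma. Cnga1, among the lower ones, lay below the control level on all arrays. Kcnmb1, the beta subunit of the large-conductance calcium-activated potassium channel, had means of 492 ± 109 (runners) and 600 ± 57.7 (non-runners) in its brightest probe set, and its other tested probe set had the opposite sign. Kcnma1, the pore subunit, measured 40.4 ± 2.9 for runners and 33.2 ± 10.7 for non-runners (SD, n = 3 each), near the control level. Ppp1r12a, the targeting subunit of myosin phosphatase, had means of 162 ± 8.4 (runners) and 151 ± 50.7 (non-runners).

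Of the other guanylyl cyclases and their activators, 7 had a probe set and 1 passed the filter. Gucy2e measured 37.0, 38.4 and 62.7 on runner arrays, against 48.6, 84.5 and 48.1 on non-runner arrays (limma adjusted p = 0.746). The groups overlapped, and 4 of 6 arrays lay above the control level.

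**Figure D4:**
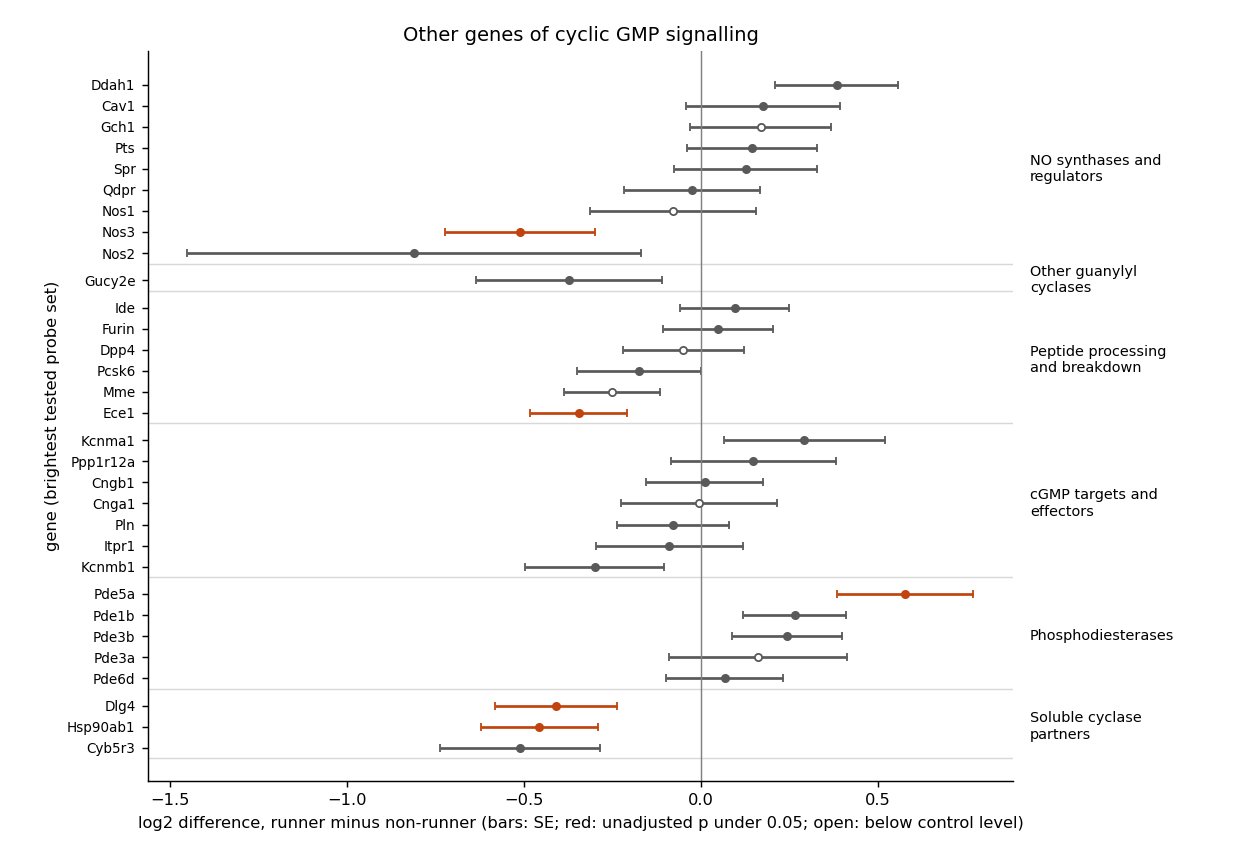
Log2 difference, runner minus non-runner, of the 31 tested genes in the brightest probe set of each (points), with SE (bars), grouped by role. Red points have an unadjusted p under 0.05 by limma (5 genes), open points lie below the control level on all arrays (6 genes), and 0 of the 31 pass after adjustment.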

How the data were processed

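Aorta RNA pools were measured on 6 rat arrays whose probe set names are of the Affymetrix kind. The authors deposited linear intensities. The software that made them is not given in the sources here. Trimmed array means were 100.0 to 100.4, so the deposited values had been scaled alike. Symbols came from the platform annotation: 7006 probe sets had 1 symbol, and 6985 of these matched the GRCr8 gene table, which changed 0 symbols. From the intensities, log2(intensity + 2.4) was computed, with a pseudocount set at the 10th percentile of values above 0, and quantile normalized without the 59 control probe sets. The dimmest 40% were left out by their mean over all arrays, which left 5244 tested. The two-sided test was limma's (version 3.58.1, lmFit with eBayes, R 4.3.3), checked on simulated data. Printed intensities are as deposited. The members and lists were chosen with earlier results of these data known. All members are named, with up to 3 genes per pathway role by smallest p, up to 3 of the brightest markers per list and the 3 nearest patterns. Myh6 and Myl4 were named after their values were seen. No read depth exists for arrays, and their number limits the precision. An exact permutation test of 3 against 3 cannot go below 0.1 and was not used. Alternatives were other pseudocounts, filters and scalings, a trended variance, the chip letter as a block, probe sets averaged per gene and each array left out. Figures were drawn with matplotlib 3.10.9.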

Additional observations from a re-analysis of the deposited data

How the results depend on the processing

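Across 14 alternatives, 0 of the tested member probe sets were called and 0 had an unadjusted p under 0.05 by limma. For the 6 probe sets above the control level these gave 84 values, of which 2 changed sign: with each array left out, Gucy1a1 ranged from -0.22 to 0.10 (without non-runner B) and Npr2 from -0.26 to 0.029 (without runner C). Their 95% intervals reached at most 1.92-fold lower and 1.86-fold higher in runners. Among all probe sets, the alternatives with 6 arrays called 0 and those with 5 arrays 0 to 4 (2 when non-runner A was omitted and 4 when non-runner C was). Without quantile normalization 53.0% of the probe sets at an unadjusted p under 0.05 were higher in runners, and with arrays centred on medians 36.3%, beside 47.9%. The median of the pathway list was -0.01 over 31 tested genes. It moved to -0.0887 with the dimmest 60% left out, over 19 genes, and to 0.0673 with probe sets averaged per gene. The list's count at an unadjusted p under 0.05 by limma was 5 of the 31. With no filter the count was 3 of 43 genes tested. As arrays were left out it was 2 to 4 (2 without non-runner C or any runner array). It was 6 without quantile normalization or with arrays centred on medians, and 6 of 19 genes with the dimmest 60% left out. A pseudocount of 16 or a trended robust variance gave 7. The cause was not tested. A replicate block on the chip letter gave a count of 2, and changed no call. Deviations of same-letter arrays from their group means correlated at -0.09, -0.04 and -0.05. This gave no sign that the letters pair the samples, and the runner titles also letter their chips D, E and F. With 3 arrays per group the correlations cannot settle whether samples were paired.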
